A study of Mus musculus with 4 samples.

Results

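The immunoglobulin kappa light-chain locus (Igk) of the mouse was described in Hi-C profiles of Stag2 knock-out and Stag2 wildtype blood progenitors. Its members were the bins of chromosome 6 from 67400001 to 70800000 (mm9), a window of 3.4 Mb. It runs from before the distal V segments to past the J and C segments, so bins at both ends lie outside the locus. The window held 170 of 131957 bins of 20 kb, of which 73 had an insulation score in all 4 libraries. It held 127 of 227822 listed bins of 10 kb and 13 of 12398 listed eigenvector bins of 200 kb. The locus was chosen with its knock-out minus wildtype difference in insulation known. That difference is therefore given here as a description. Calls from a limma fit over all bins of the genome mark where in the locus it was wide against a spread between libraries. That spread was drawn partly from the bin itself and partly from all bins of the genome. The calls are no independent test of the locus.

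The cells were lineage-depleted bone marrow progenitors, isolated by removing cells with lineage markers on magnetic beads. Hi-C, which ligates and counts pairs of DNA fragments that touch in the nucleus, was done with the enzyme DpnII. There were 2 libraries labelled Stag2 knock-out and 2 labelled Stag2 wildtype, and nothing in the labels says whether those of a genotype came from separate animals. The sources used here do not give the way Stag2 was deleted, its extent among tissues or the age of the animals. Only contact readouts were used, with no expression values, so the cell type could not be checked against markers. Each score averages over all cells of a library, so a change in which cells were present and a change of folding within cells cannot be told apart.

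The kappa light chain is one of the light chains of the B-cell receptor. During B-cell development the RAG recombinase joins a V segment to a J segment next to the single constant segment, so that V segments spread over megabases must meet the J segments. Looping of the locus by cohesin and CTCF is known to bring them together, and Stag2 encodes a subunit of cohesin that is exchangeable with Stag1. In RefSeq (GRCm38.p6, used for names and gene order only) the locus held 102 V segments and 60 V pseudogenes of 20 families, then 5 J segments and 1 constant region. The largest family was Igkv4, with 33 members. No protein-coding gene lay between the first V segment and the constant region. Protein-coding genes near the locus included Il23r, a cytokine receptor chain, on the distal side. On the side of the constant region they included Rpia, an enzyme of the pentose phosphate pathway, and Eif2ak3, a kinase of the unfolded protein response.

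Of 30 other genes and pseudogenes between the first V segment and the constant region, 4 had an entry in the RefSeq promoter table (250 bases before to 50 after the start). The 2 shown are those with a match to a searched motif, since octamer elements are known from kappa V promoters and CTCF sites from the folding of the locus. The octamer was searched as ATTTGCAT and CTCF by a core consensus with free positions, on both strands. The octamer occurred in 1.74% of 32851 promoters and the CTCF core in 2.44%. The long non-coding RNA Gm38573 lies near the distal end, between V segments of the Igkv14 and Igkv1 families (chr6:67721387-67721686, GRCm38.p6, minus strand). Its capitals mark the CTCF core, from base 169 of 300. The long non-coding RNA LOC108169192 lies further in, between V segments of the Igkv1 and Igkv13 families (chr6:68880650-68880949, GRCm38.p6, minus strand). Its capitals mark the octamer, from base 182 of 300. Neither promoter held a match to both motifs. These coordinates belong to another build than the bins and cannot be laid on them.
Gm38573: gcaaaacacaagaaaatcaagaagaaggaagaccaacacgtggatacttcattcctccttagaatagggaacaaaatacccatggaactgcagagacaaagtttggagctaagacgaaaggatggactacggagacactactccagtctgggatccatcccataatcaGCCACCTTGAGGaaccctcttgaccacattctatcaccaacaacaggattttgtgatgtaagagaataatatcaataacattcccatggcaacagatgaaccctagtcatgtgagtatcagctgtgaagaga
LOC108169192: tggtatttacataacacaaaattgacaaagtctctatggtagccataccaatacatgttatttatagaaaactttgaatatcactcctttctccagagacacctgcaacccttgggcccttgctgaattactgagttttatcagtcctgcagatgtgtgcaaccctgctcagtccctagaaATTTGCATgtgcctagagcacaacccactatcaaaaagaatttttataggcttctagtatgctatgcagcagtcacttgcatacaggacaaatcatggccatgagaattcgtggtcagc
A match is a description of letters and not evidence of a bound site.

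The window was compared by position in 3 parts. The distal V part ran from 67400001 to 68540000 (57 bins), the middle V part from 68540001 to 69680000 (57 bins) and the J-C part from 69680001 to 70800000 (56 bins). Flanks of 1 Mb lay on either side. An insulation score sets the contacts that cross a bin against those of its surroundings, so it is low where few contacts pass over the bin. Domain boundaries are read as its local minima. The sources used here state neither its log base nor its window size, and sequencing depth was unknown.

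Much of the locus carried no score, and how much differed between libraries. In the distal V part, knock-out libraries had a score in 57 and 56 of 57 bins and wildtype libraries in 57 and 57. In the middle V part, the knock-out libraries had a score in 21 and 1 of 57 bins and the wildtype libraries in 28 and 15. In the J-C part, the counts were 19 and 17 of 56 bins in knock-out and 35 and 16 in wildtype. All 50 bins of each flank had a score in the 4 libraries. Scores were thus missing inside the locus and not beside it. On chromosome 6 as a whole, 94.7% of 7476 bins were scored in all 4 libraries, against 42.9% in the window. From 68600001 to 70420000, a stretch of 1820 kb, every bin lacked a score in at least 1 library. Within it, 25 adjacent bins from 69060001 to 69560000 and 21 from 69620001 to 70040000 had no score in any library. No statement on insulation at the center of the locus is therefore possible, and the middle V part rests on 1 bin wherever all libraries are compared.

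**Figure D1:**
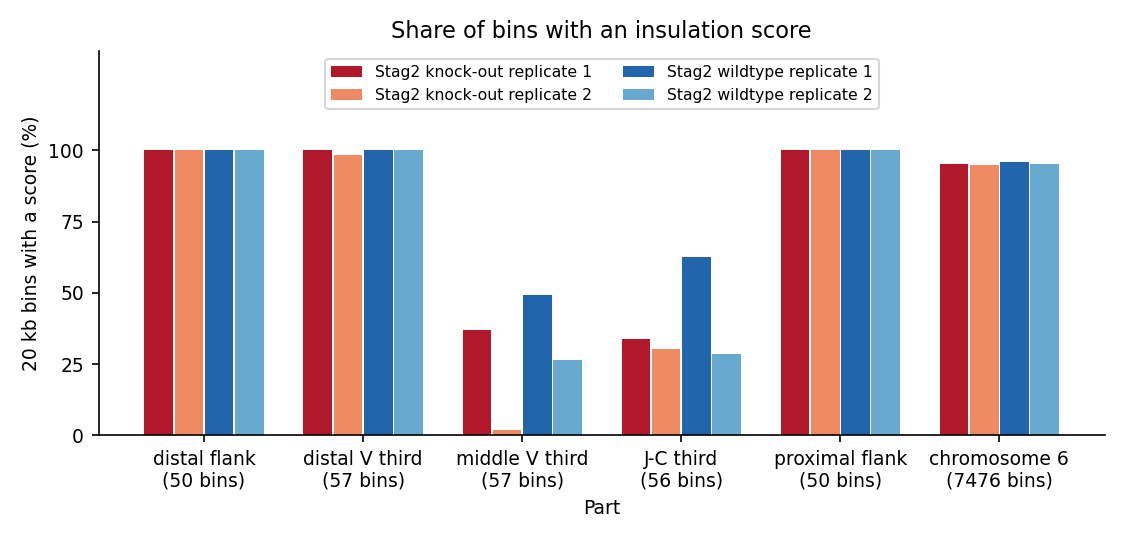
Share of 20 kb bins with an insulation score (vertical axis, percent) in each part of the Igk window, its flanks and chromosome 6, with 1 bar per library. The flanks and the distal V part are scored nearly throughout, whereas knock-out replicate 2 has a score in 1 of 57 bins of the middle V part.

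Across the scored bins of the locus, insulation scores were lower in both knock-out libraries than in both wildtype libraries. Over the 73 bins scored in all 4 libraries, the knock-out libraries averaged -0.515 and -0.453, and the wildtype libraries averaged -0.262 and -0.243. The 2 genotypes did not overlap. The mean was -0.484 ± 0.0438 in knock-out and -0.253 ± 0.0132 in wildtype (SD, n = 2 each), a difference of -0.232. The difference was negative in 70 of the 73 bins, with a median of -0.264, whereas the median over 117252 bins of the genome was -0.00721. In 50 bins the 2 knock-out scores were both lower than the 2 wildtype scores (68.5%), where the genome had 34.8%. They were both higher in 0 bins, where the genome had 31.0%. Limma called 44 bins lower in knock-out at an adjusted p below 0.05, where 11.2% of bins were called lower over the genome. It called 0 bins of the window higher (0 at an unadjusted p below 0.05 as well), where the genome had 11.2%. In either direction 22.4% of all bins were called. With a running mean over 51 bins subtracted from each library, the window's difference was -0.0236 and 0 bins were called. Since the locus was chosen on this contrast, nothing is read from these shares.

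Wildtype scores climbed toward the center of the window to values above 0, a level that no scored bin of the locus reached in knock-out. Knock-out replicate 1 had 0 of its 97 scored bins above 0 and knock-out replicate 2 had 0 of 74, whereas wildtype replicate 1 had 56 of 120 and wildtype replicate 2 had 30 of 88. Over the same 73 bins the counts above 0 were 0 and 0 in knock-out and 18 and 15 in wildtype. The highest score of the shared bins was -0.172 and -0.136 in the knock-out libraries, and 0.292 and 0.258 in the wildtype libraries. All 4 of these maxima lay between 68460001 and 68600000.

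**Figure D2:**
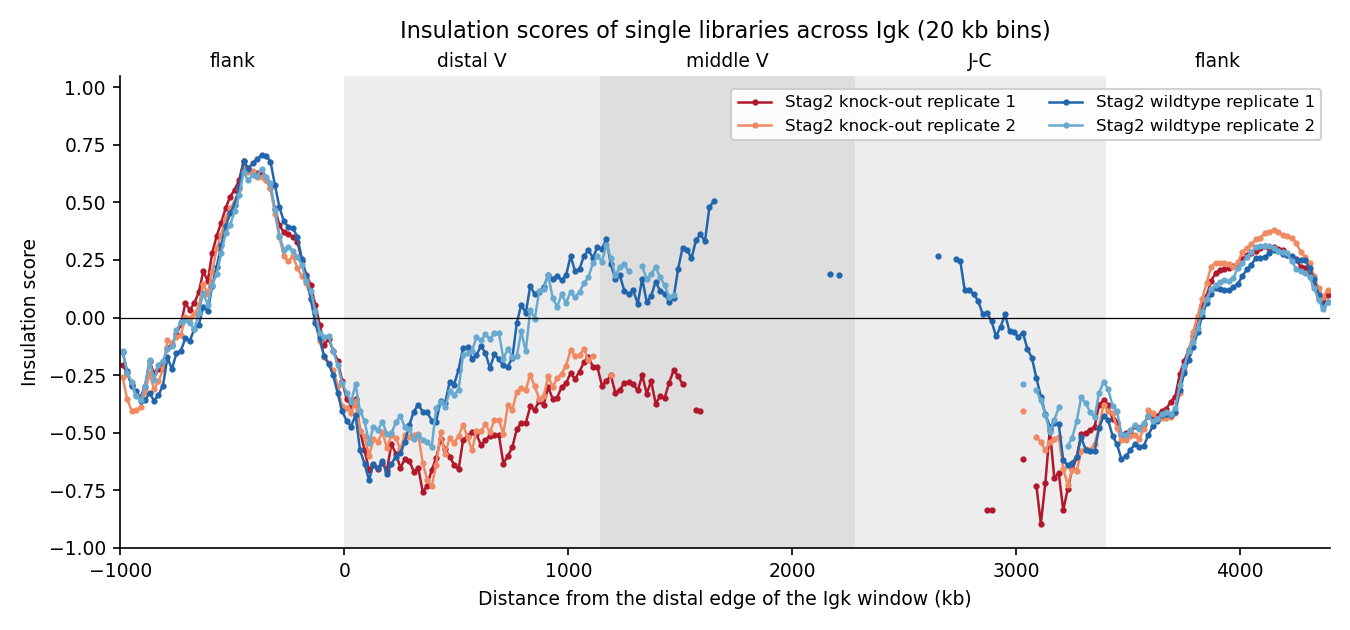
Insulation score (vertical axis) of the 4 libraries in 20 kb bins against the distance from the distal edge of the Igk window in kb, with the 3 parts shaded and gaps where a library has no score. The lines run together in the flanks and at the edges of the locus and separate beyond 300 kb, and in the bins scored in all 4 libraries from 860 kb to the unscored center both wildtype libraries lie above 0 and both knock-out libraries below it.

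The distal V part held 56 of the 73 shared bins of the window, so most of the measured difference came from it. The 1 shared bin of the middle V part differed more, by -0.495. The 56 bins of the distal V part averaged -0.497 and -0.429 in the knock-out libraries, against -0.211 and -0.207 in the wildtype libraries. Every knock-out value lay below every wildtype value. The mean was -0.463 ± 0.0479 in knock-out and -0.209 ± 0.00286 in wildtype (SD, n = 2 each), a difference of -0.254. The 4 pairs of a knock-out and a wildtype library gave differences from -0.290 to -0.218. Of these bins 39 were called lower, where the genome had 11.2%, and in 40 the genotypes did not overlap with knock-out lower, where it had 34.8%. With the running mean subtracted the difference was -0.00592 and 0 bins were called, there and over the genome.

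The difference was not spread evenly over the distal V part but opened with distance from the edge. In the 5 bins from 67400001 to 67500000 the knock-out mean was -0.433 and the wildtype mean -0.439, a difference of 0.00585. In the next 100 kb it was -0.0229, and from 67600001 to 67700000 it was -0.0484. The first 300 kb of the window thus differed little. The distal V segments start at about 67500000, so the first of these steps lies outside the locus. The difference then grew to -0.183 from 67700001, -0.219 from 67800001 and -0.360 from 67900001, in steps of 100 kb. From there to 68500000 the steps ranged from -0.423 to -0.338. The first of the 39 called bins began at 67740001, with -0.757 and -0.633 in the knock-out libraries and -0.409 and -0.531 in the wildtype libraries. Its neighbor at 67720001, with a difference of -0.135, was not called.

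Along the 39 bins from 67740001 to 68520000 scores climbed toward the center in every library, and less steeply in knock-out. A straight line gave 0.631 and 0.691 score units per Mb in the knock-out libraries, against 0.976 and 0.865 in the wildtype libraries. The slopes of the genotypes did not overlap. The stretch was picked because its bins were called lower in knock-out, so nothing is read from this. From the first to the last of these bins scores changed by 0.544 and 0.467 in knock-out and by 0.669 and 0.769 in wildtype. The widest gap of the distal V part lay from 68280001 to 68300000, with -0.379 and -0.342 in the knock-out libraries and 0.133 and 0.124 in the wildtype libraries. Both wildtype libraries were above 0 there and both knock-out libraries below. Its difference of -0.489 ranked 5 from the lowest among 117252 bins.

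In the middle V part only the bin from 68580001 to 68600000 had a score in all 4 libraries. It had -0.251 and -0.250 in the knock-out libraries and 0.231 and 0.258 in the wildtype libraries. The difference was -0.495, rank 3 from the lowest over the genome, and -0.101 with the running mean subtracted, when the bin was not called. More of the part could be seen without knock-out replicate 2. Over 15 bins from 68540001 to 68880000, knock-out replicate 1 averaged -0.297, against 0.153 and 0.197 in the wildtype libraries. Its gap below the lower wildtype library ran from 0.313 to 0.592. The bins adjoin each other and the share of bins over the genome with such an order was not computed, so nothing is read from it. Over 21 bins, as far as 69000000, it averaged -0.306, against 0.175 in wildtype replicate 1. With a single knock-out library these bins have no replicate check in that genotype.

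The J-C part is named for the J and C segments near the proximal edge of the window, but also takes in V segments before them. Its mean and its calls are therefore not those of the J and C segments alone. In this part the difference was smaller and shrank toward the proximal edge. Its 16 shared bins, from 70420001 to 70800000, averaged -0.596 and -0.550 in the knock-out libraries and -0.470 and -0.401 in the wildtype libraries. The mean was -0.573 ± 0.0322 in knock-out and -0.435 ± 0.0489 in wildtype (SD, n = 2 each), a difference of -0.138. All 16 bins were lower in knock-out by the mean, in 9 the genotypes did not overlap (34.8% over the genome), and 4 were called lower (11.2% over the genome). With the running mean subtracted the difference was -0.0809 and 0 bins were called. The called bins were those between 70420001 and 70540000, at the side of the unscored center. Without wildtype replicate 1, 2 bins of the part were called.

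Toward the proximal edge of the window the genotypes converged. The J and C segments end at about the bin from 70660001 to 70680000, which had a difference of -0.109 and was not called. Bins past it lie outside the locus but count in the mean of the part. The difference was -0.333 in the 2 bins from 70420001 to 70500000, -0.191 in the next 100 kb and -0.110 in the 4 shared bins from 70620001 to 70700000. It was -0.0292 from 70700001 to 70800000. The libraries of a genotype also differed here. The bin from 70500001 to 70520000 had -0.895 in knock-out replicate 1 and -0.541 in knock-out replicate 2, against -0.344 and -0.358 in the wildtype libraries. The knock-out libraries were nearly as far from each other as the genotype means, which differed by -0.367. The bin was still called (limma, adjusted p 0.0202), with a spread taken partly from other bins.

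**Figure D3:**
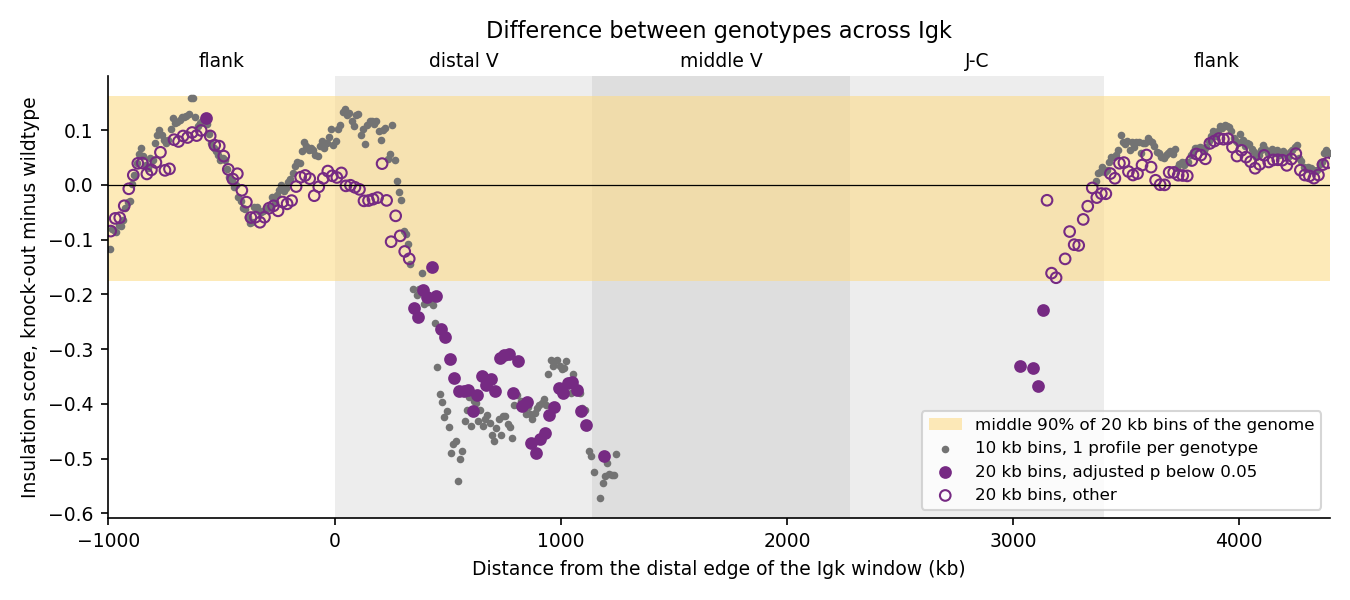
Knock-out minus wildtype insulation score (vertical axis) against the distance from the distal edge of the Igk window in kb, for 20 kb bins scored in all 4 libraries (circles, filled where the adjusted p is below 0.05) and for the 10 kb profiles of each genotype (dots). The 20 kb differences first pass below the band that holds the middle 90% of bins of the genome, from -0.175 to 0.163, at 340 kb, lie inside it again at 420 kb (-0.149), and are back within it toward the proximal edge.

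Outside the window the genotypes lay closer together than inside it. In the distal flank the means were 0.147 and 0.0939 in the knock-out libraries and 0.101 and 0.111 in the wildtype libraries, a difference of 0.0142. The knock-out libraries differed from each other by more than that, and the wildtype values lay between them. In the proximal flank they were -0.0273 and -0.0102 in the knock-out libraries and -0.0730 and -0.0404 in the wildtype libraries, a difference of 0.0379. The wildtype libraries were both lower there, by little more than their own range. In the proximal flank 22 of 50 bins had both knock-out scores above both wildtype scores and 0 had both below. In the distal flank the counts were 14 and 4 of 50. The genome had 31.0% above and 34.8% below. In the 10 kb profiles, 0 of 100 proximal bins and 33 of 100 distal bins were lower in knock-out, where the genome had 52.4%. The mean differences there were 0.0638 and 0.0340. Of 100 flank bins, 1 was called, a bin of the distal flank from 66820001 to 66840000 that was higher in knock-out by 0.122. Over the genome 22.4% of bins were called, 11.2% as higher. Measured against the mean of both flanks in the same library, the distal V part stood at -0.557 and -0.471 in knock-out and -0.226 and -0.243 in wildtype. The J-C part stood at -0.656 and -0.592 in knock-out and -0.484 and -0.436 in wildtype. The contrast of locus and flanks was thus larger in both knock-out libraries for both parts.

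**Figure D4:**
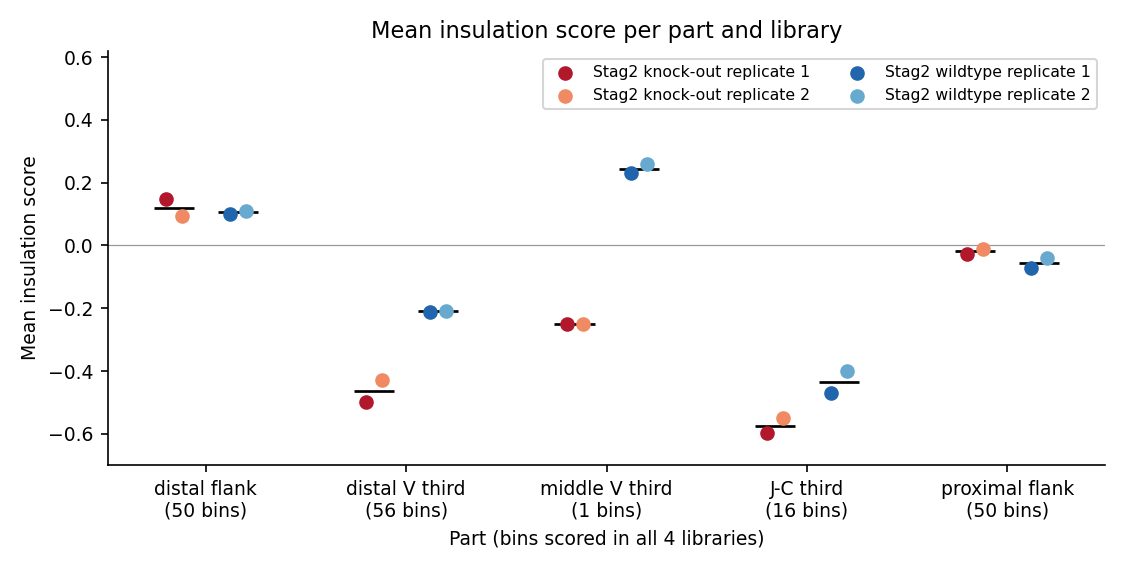
Mean insulation score (vertical axis) of each library over the bins of a part that were scored in all 4 libraries, with knock-out libraries left and wildtype libraries right in each part and a line at the mean of each genotype. The genotypes separate in the 3 parts of the locus, by -0.254, -0.495 (1 bin) and -0.138, and by 0.0142 and 0.0379 in the flanks.

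On the distal side the same bin held the boundary in the mean of each genotype. The mean profile of the 4 libraries had 1 boundary in the window, from 67500001 to 67520000, found as a local minimum over 10 bins on each side with a depth of at least 0.2. Its score was -0.661 and -0.603 in the knock-out libraries and -0.705 and -0.543 in the wildtype libraries. Its depth was 0.341 and 0.269 in knock-out and 0.416 and 0.290 in wildtype, so that the genotypes overlapped. The difference of mean depth was -0.0480. On the proximal side the mean of the 4 libraries over shared bins was lowest from 70620001 to 70640000. The scores there were -0.744 and -0.726 in knock-out and -0.642 and -0.558 in wildtype. Bins without a score lie within 10 bins of that bin, so the boundary search did not cover it. Knock-out replicate 1 was lower still from 70500001 to 70520000, at -0.895. The flanks held 2 more boundaries, from 66480001 to 66500000 and from 71760001 to 71780000, with differences of mean depth of -0.0518 and -0.0504. These were about that of the boundary in the window, but the depths of the genotypes did not overlap. Depths at other boundaries of the genome were not compared, so nothing is read from this. At the first the depth was 0.421 and 0.461 in knock-out and 0.487 and 0.498 in wildtype. At the second it was 0.385 and 0.408 in knock-out and 0.443 and 0.452 in wildtype. In the knock-out mean alone the boundary of the distal flank lay from 66460001 to 66480000.

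Libraries of the same genotype differed more over the locus than over the genome. The median gap between libraries of a genotype was 0.0724 in knock-out and 0.109 in wildtype over the 73 bins. Over the genome it was 0.0463 in knock-out and 0.0341 in wildtype. The median size of the difference between genotypes in the window, 0.264, was larger than both gaps. In the first 340 kb of the window, before the called bins, the difference averaged -0.0344. That was less than the gap between the means of the wildtype libraries, which were at -0.557 and -0.452.

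The profiles of 10 kb bins, 1 per genotype and possibly made from the same libraries, gave the same course with a different start. From 67740001 to 68520000 they averaged -0.604 in knock-out and -0.225 in wildtype, a difference of -0.380, and 78 of 78 bins were lower in knock-out, where the genome had 52.4%. That stretch was picked from the 20 kb calls, so nothing is read from this count. In the 340 kb before that stretch, the 10 kb profiles were higher in knock-out by 0.0684 on average, with only 6 of 34 bins lower, whereas the 20 kb libraries were lower by 0.0344. Averaged over these 340 kb the 2 resolutions had opposite signs, with the 20 kb value smaller than the gap between the wildtype libraries. The bin from 68570001 to 68580000 had -0.384 in knock-out and 0.187 in wildtype. Its difference of -0.571 was the lowest of 227822 bins. Of the 228 lowest bins (0.1%), 74 lay in the window. The 10 kb profiles listed 9 of 114 bins of the middle V part, with a mean difference of -0.529. They listed 4 of 112 bins of the J-C part, at its far end past the J and C segments, with a mean difference of 0.0218.

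Among all 20 kb bins, 59 had a difference below -0.4, on 5 chromosomes, and 11 of these (18.6%) lay in the window. Below -0.3 there were 291 bins in the genome, of which 35 lay in the window. These counts describe the values that chose the locus and are no test of it.

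In the compartment eigenvector, most listed bins of the window had negative values in both genotypes while both flanks were positive. The eigenvector splits a chromosome into the 2 compartments whose regions contact each other most, and the sources used here do not say which sign marks the active one. Of 17 bins of 200 kb, 13 were listed, and 11 of these were negative in knock-out and 11 in wildtype. No bin changed sign. The positive ones were the outermost. The distal one, from 67400001 to 67600000, had 0.00826 in knock-out and 0.0183 in wildtype. The one from 70600001 to 70800000, at the C end, had 0.0355 in knock-out and 0.0397 in wildtype.

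The eigenvector was lower in knock-out in 13 of 13 listed bins, against 48.5% of 720 bins of chromosome 6. The mean over these bins was -0.0330 in knock-out and -0.0301 in wildtype, a difference of -0.00294. Outside the window the mean difference on chromosome 6 was 7.63e-05 with an SD over single bins of 0.00359, and the SD over the 13 bins of the window was 0.00242. Among bins of chromosome 6 outside the window that were negative in wildtype, 51.9% were lower in knock-out. The shift was widest at the distal edge, by -0.0101. The lowest value in the window lay from 69800001 to 70000000, with -0.0482 in knock-out and -0.0450 in wildtype. In knock-out that bin stood at percentile 1.88 of the chromosome, and in wildtype at percentile 13.1. It lies in the stretch from 69620001 to 70040000, where no 20 kb bin had an insulation score in any library. In the flanks 4 of 5 distal bins and 1 of 5 proximal bins were lower in knock-out. Each genotype had a single profile and neighboring bins vary together, so these values have no replicate check and no test.

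**Figure D5:**
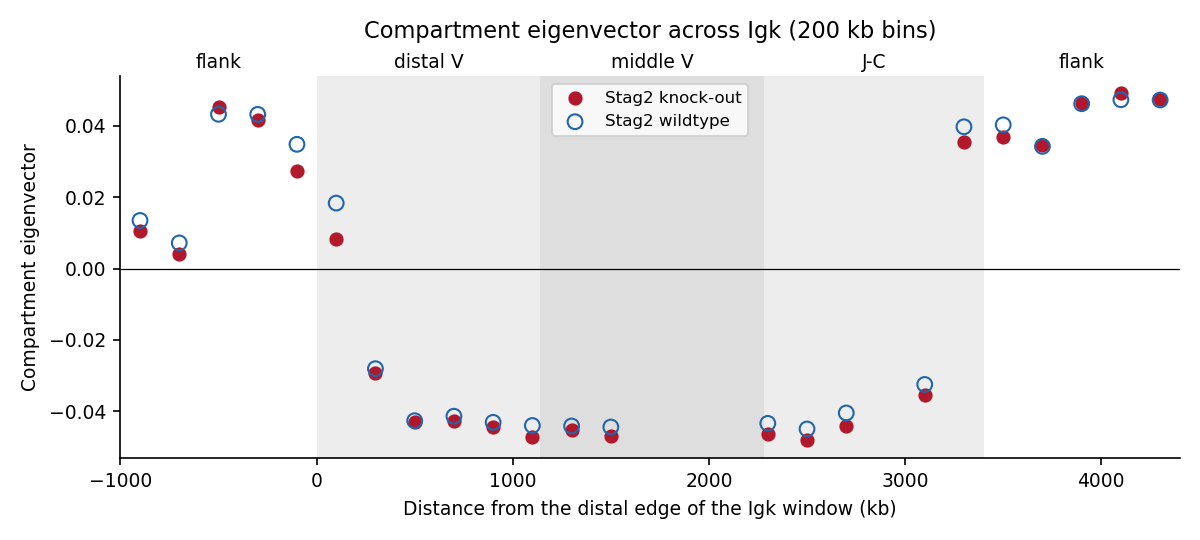
Compartment eigenvector (vertical axis) in 200 kb bins against the distance from the distal edge of the Igk window in kb, for knock-out (filled) and wildtype (open), 1 profile per genotype. The listed bins of the window lie below 0 between positive flanks, except its outermost bin on either side, and every listed bin of the window is lower in knock-out, with differences from -0.0101 to -0.0005.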

How the data were processed

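Hi-C libraries of mouse blood progenitors, 2 per genotype, were grouped by genotype as labelled and numbered by accession. The authors deposited insulation scores of single libraries in 20 kb bins, and insulation scores and compartment eigenvectors of each genotype in 10 kb and 200 kb bins, per the file headers; both are treated as a score. Coordinates are mm9, per the submitters' processing notes. Aligner, filters, matrix balancing, insulation window, log base and pooling are not stated in these sources. Depth is unknown.

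Limma 3.58.1 in R 4.3.3 (lmFit, eBayes with a trend) was fitted to the 117252 bins scored in all 4 libraries, with no term besides genotype. Benjamini-Hochberg adjustment ran over all of them, at 0.05. The fit was run on simulated data with independent bins and a common SD, unlike the bins here, so it does not vouch for the calls. P-values reflect no more than the spread between 2 libraries per genotype, possibly technical. In each bin that spread was drawn toward the one of all bins with a similar mean score. Means per part used the 73 shared bins of the window. Called bins within 50 kb were joined. The bins named are the called regions of at least 3 bins, the extreme bins of each part, boundaries, unscored runs of at least 3 bins and the highest and lowest eigenvector values. The steps of 100 kb, the slope, the genome ranks, the single flank bin called and the bins of fewer libraries were added after the values were seen. Alternatives left out each library, changed the scaling, bins, summary, limma settings or boundary rule, took off a broad running mean, or used the 10 kb profiles. The members, parts and lists were chosen with earlier results of these data known.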

Additional observations from a re-analysis of the deposited data

How the results depend on the processing

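The mean difference of the window ranged from -0.263 to -0.201 with each library left out in turn, that of the distal V part from -0.288 to -0.220, of the middle V part from -0.508 to -0.481 and of the J-C part from -0.172 to -0.103. The bins called lower ranged from 37 to 48 in the window, from 34 to 41 in the distal V part and from 2 to 6 in the J-C part, and stayed at 1 in the middle V part. Of the 44 bins, between 37 and 43 were called again. The distal flank, at 0.0142, ranged from -0.0123 to 0.0406 and was negative without knock-out replicate 1. Over the genome, 26308 bins were called with all libraries, 9213 without wildtype replicate 1 and 9445 without wildtype replicate 2. In these fits the lone library of a genotype is assumed to vary like the other 2, so nothing is read from the counts of bins called in them. With the running mean of 51 bins taken off each profile, limma called 0 bins in the window and in each part, and 0 over the genome. At an unadjusted p below 0.05 there were 21 bins in the window, 17 of them lower. The share of all bins at that level was not computed, so nothing is read from this count. The mean difference was then -0.0236 in the window, -0.00592 in the distal V part, -0.101 in the middle V part and -0.0809 in the J-C part. The running mean spans nearly the length of the distal V part, so a change as broad as that part is removed with it. Over bins scored in at least 1 library of each genotype the difference was -0.301 in the window and -0.211 in the J-C part, from more bins. Over bins scored in knock-out replicate 1 and both wildtype libraries, or in that library and wildtype replicate 1, settings chosen after seeing the data, it was -0.472 and -0.481 in the middle V part, and over the second set -0.206 in the J-C part. The median in place of the mean gave -0.317 in the distal V part. Against the flanks the middle V part gave -0.521. The 10 kb profiles gave -0.529 there and 0.0218 in the J-C part, the only turn of direction among these parts; they list 4 bins of that part, beside the flank. With each library scaled to unit SD the difference was -0.469 SD in the window, and 42 bins were called. In that setting 19.7% of all bins were called in either direction. In bins at least 200 kb from an unscored bin, 30 of 47 were called lower. Of all such bins of the genome, 23.7% were called in either direction. With minima over 5 bins 0 boundaries were found in the window, and in the knock-out mean alone 2. The title suffix T1, as a replicate block, gave 46 called bins in the window, where 22.8% of all bins were called in either direction. The labels do not say what it marks. Replicate 2 minus replicate 1 correlated between genotypes with r = -0.0551 across bins of the genome and r = -0.398 across the 73 bins of the window. The libraries were therefore not taken as pairs. Depth is unknown and the center of the locus is unscored, which limits all statements on insulation to its outer parts.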

Other observations

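Bins that only wildtype replicate 1 scored numbered 7 in the middle V part, with scores from 0.186 to 0.508, and 16 in the J-C part, from -0.175 to 0.266. No other library had bins of its own in the locus. In the 2 bins of the J-C part that it shared with knock-out replicate 1 alone beside the unscored center, from 70260001 to 70300000, knock-out replicate 1 had -0.834 and -0.836, and wildtype replicate 1 had 0.0187 and -0.0164. These gaps were wider than any between genotype means in the window. The mean knock-out profile alone had a second boundary in the distal V part, from 67760001 to 67780000, with a depth of 0.206 and 0.223 in the knock-out libraries and 0.159 and 0.253 in the wildtype libraries, which overlap.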
